A study of Mus musculus with 5 samples.

Results

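The kinesin family was described in whole hearts of newborn mice with and without the long noncoding RNA Charme. Members were all genes whose symbol begins with Kif and a digit, or with Kifc, and that had at least 10 counts in at least 2 of the 5 libraries. Of 47 such symbols in the deposited table of 49671 genes, 38 passed this filter, among 14880 genes that passed it in all. By the known role of each protein, 13 were sorted as mitotic kinesins, 14 as transport kinesins and 11 as other members. The question was whether the kinesins that build the spindle and those that carry cargo differed between the genotypes in the same way.

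Kinesins are motor proteins that use ATP to walk along microtubules or to take their ends apart. Mitotic kinesins are made mostly in dividing cells, where they push spindle poles apart, move chromosomes and close the furrow between daughter cells, and their transcripts typically peak late in the cell cycle. Transport kinesins work at all times in most cells and carry vesicles, mitochondria, lysosomes and ciliary cargo. In the mouse heart, cardiomyocytes still divide in the days around birth and then largely leave the cell cycle, while fibroblasts and endothelial cells can go on dividing.

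Polyadenylated RNA was sequenced with a stranded kit from hearts of C57BL6/J mice at postnatal day 2 (PN2). The CharmeKO allele carries a PolyA signal inserted into the Charme locus, and CharmeWT littermates served as controls; no mouse received a treatment, and both sexes were used. The 3 CharmeWT libraries each came from 9 pooled hearts and the 2 CharmeKO libraries each from 3, so that the effects of genotype and of the number of hearts per pool cannot be told apart. Each library is 1 pool, and p-values measure the spread between pools, not between animals. In such whole-tissue RNA, a change in the number of cells of a type and a change in RNA per cell cannot be told apart.

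Depth was similar across the pools, with 16721055 to 21646378 counts on genes per library, and the kinesins together held 22527 to 32346 of these, or 0.131% to 0.154%. Charme itself had 810, 183 and 276 counts in CharmeWT pools 1 to 3 and 57 and 79 in CharmeKO pools 1 and 2. Every CharmeKO pool was below every CharmeWT pool, and the log2 fold change of CharmeKO over CharmeWT was -2.49 (SE 0.55, adjusted p = 0.0763 by the quasi-likelihood test of edgeR, adjusted after Benjamini and Hochberg, as for all adjusted p values here unless another test is named). The fit without CharmeWT pool 1, the pool with the most Charme counts, gave -1.68 (adjusted p = 0.153), and that without CharmeWT pool 3 gave -2.72 (adjusted p = 0.275). The cardiomyocyte markers Myh6, Tnnt2, Actn2, Ttn and Ryr2 were present in every pool, with a summed level of 24490 to 29180 counts per 1e6 (CPM) in CharmeWT and 21250 and 22660 CPM in CharmeKO. Both CharmeKO pools stood apart in salivary gland transcripts: the summed level of 5 such markers was 0.146, 0.170 and 0.152 CPM in CharmeWT but 325.7 and 24730 CPM in CharmeKO pools 1 and 2. Markers of other cell types and of dividing cells are given after the kinesins.

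The mitotic kinesins were higher in CharmeKO hearts. A gene was called when its adjusted p was under 0.1 and its mean level reached 1 FPKM (fragments per kilobase of exon and per 1e6 mapped) in at least 1 genotype. By this rule 10 of the 13 mitotic kinesins rose and none fell, where 2.05% of all genes tested were called, 1.53% as higher and 0.524% as lower. The called genes were Kif20a, Kif2c, Kif11, Kif20b, Kif18a, Kif4, Kif23, Kif14, Kif15 and Kif22, with log2 fold changes of 1.15 to 1.66, that is 2.21-fold to 3.16-fold. Of these, Kif14, Kif15 and Kif18a reached a mean of 1 FPKM in CharmeKO only. Without the FPKM minimum the number of mitotic kinesins called was also 10. The other members, Kifc5b, Kif18b and Kifc1, had log2 fold changes of 0.92, 0.79 and 0.73 that did not pass the adjusted threshold. All 13 had a log2 fold change above 0, as did 51.8% of all genes tested. All 13 also had an unadjusted p under 0.05 with the higher mean in CharmeKO, as did 10.6% of all genes tested. The median log2 fold change was 1.29 over the mitotic kinesins and 0.02 over all genes tested. In 12 of the 13, both CharmeKO pools lay above every CharmeWT pool, an order seen in 17.8% of all genes tested. The likelihood ratio test and DESeq2 each called 11 of the 13 higher, where they called 3.92% and 4.33% of all genes higher.

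**Figure D1:**
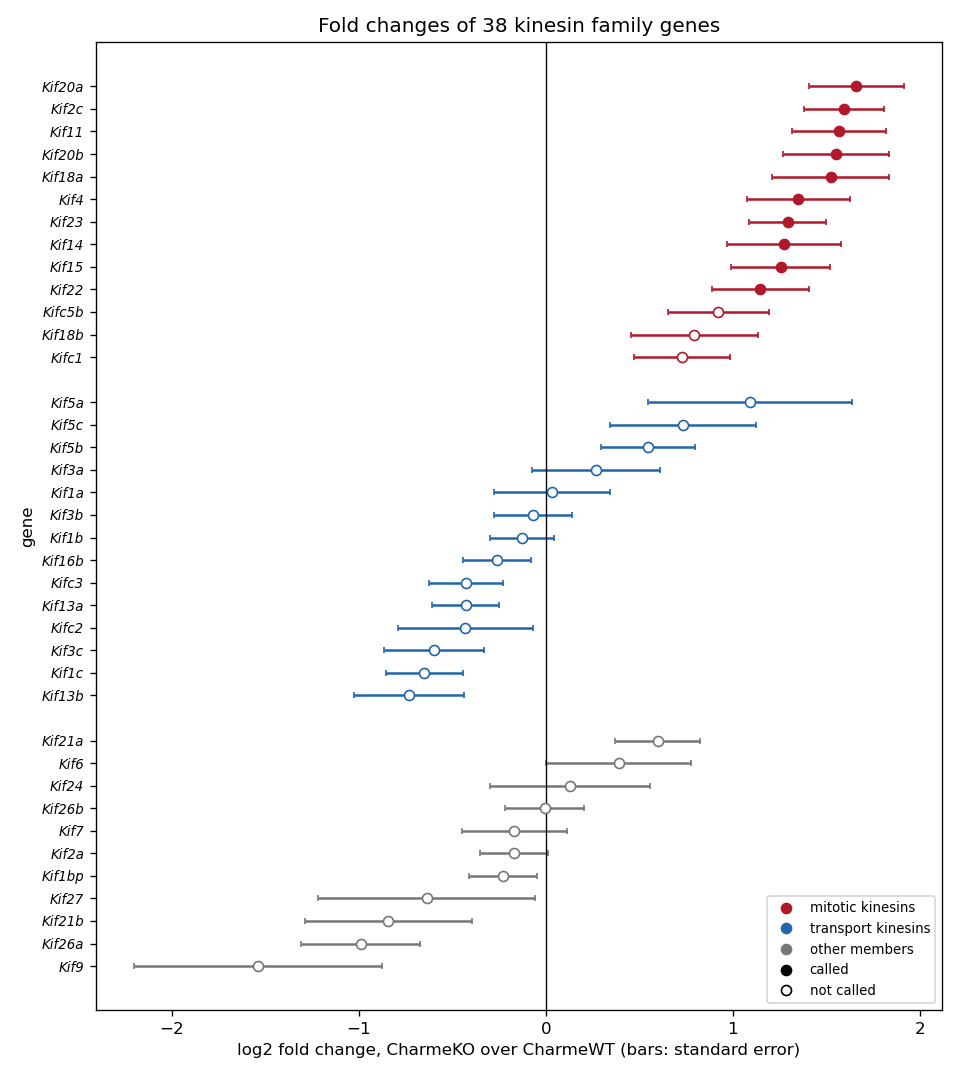
Log2 fold change of CharmeKO over CharmeWT (horizontal axis) for each of the 38 kinesin family genes (vertical axis), with bars of 1 standard error and filled points for called genes. All 13 mitotic kinesins (top, red) sit between 0.73 and 1.66, the 14 transport kinesins (middle, blue) between -0.73 and 1.09 and the 11 other members (bottom, grey) between -1.54 and 0.60.

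The calls depended on which CharmeWT pools were in the fit. Without CharmeWT pool 1 or without CharmeWT pool 3, no mitotic kinesin was called, although their median log2 fold change was 1.35 and 1.16 in those fits. Only 1 of all genes was then called higher without pool 1, and 0 without pool 3. Without CharmeWT pool 2, 7 were called, beside 1.02% of all genes called higher, and Kif14, Kif15 and Kif18a were lost. The count was 12 without CharmeKO pool 1 and 11 without CharmeKO pool 2, beside 3.06% and 16.1% of all genes called higher in those fits. The fold changes themselves stayed above 0 for all 13 in each of these 5 fits. As both CharmeKO pools lay above every CharmeWT pool in 12 of the 13, leaving out 1 pool could hardly change a sign.

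Of the kinesins that act in cytokinesis, Kif20a (also MKLP2) carries the chromosomal passenger complex, which holds Aurora B kinase, to the middle of the spindle. Its level was 8.89, 12.2 and 6.55 FPKM in CharmeWT pools 1 to 3 and 33.1 and 25.2 FPKM in CharmeKO pools 1 and 2. It was the most abundant mitotic kinesin per length in every pool, at 9.23 ± 2.86 FPKM (SD, n = 3) in CharmeWT and 29.2 ± 5.59 FPKM (SD, n = 2) in CharmeKO, and it had the largest log2 fold change of the family, 1.66 (SE 0.25, adjusted p = 0.0343). Kif23 (MKLP1), the motor subunit of the centralspindlin complex that bundles the central spindle, measured 2.77, 3.13 and 2.15 FPKM against 6.83 and 6.33 FPKM. The CharmeKO values of Kif23 were close to each other and well above the CharmeWT range, with a log2 fold change of 1.29 (SE 0.21, adjusted p = 0.039). Kif20b, which acts at the midbody between the daughter cells, measured 1.85, 0.960 and 1.21 FPKM in CharmeWT and 4.32 and 3.57 FPKM in CharmeKO. The difference in Kif20b was 1.55 on the log2 scale (SE 0.28, adjusted p = 0.045). Kif14 binds citron kinase and Prc1 at the midbody, and its level was low, at 0.488, 0.574 and 0.298 FPKM in CharmeWT and 1.14 and 1.05 FPKM in CharmeKO. Its log2 fold change of 1.28 (SE 0.30, adjusted p = 0.0948) was the closest to the threshold among the called kinesins. Together these 4 genes summed to 13.7 ± 3.36 FPKM (SD, n = 3) in CharmeWT and 40.8 ± 6.53 FPKM (SD, n = 2) in CharmeKO, a ratio of 2.98.

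Kif11 (Eg5) slides apart the microtubules of opposite poles and is needed to make a spindle with separate poles. Kif11 measured 4.80, 5.08 and 3.75 FPKM in CharmeWT and 17.3 and 9.64 FPKM in CharmeKO. The 3 CharmeWT pools were close together, while the CharmeKO pools differed from each other and were both higher, with a log2 fold change of 1.57 (SE 0.25, adjusted p = 0.039). Kif15 helps Kif11 keep the poles apart, and its level was 0.899, 0.796 and 0.707 FPKM in CharmeWT and 2.39 and 1.46 FPKM in CharmeKO. As with Kif11, CharmeKO pool 1 was the highest for Kif15, and its log2 fold change was 1.26 (SE 0.26, adjusted p = 0.0671).

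The chromokinesins bind chromosome arms. Kif22 (Kid) pushes the arms away from the poles, and it measured 3.03, 5.24 and 3.15 FPKM in CharmeWT and 7.77 and 9.05 FPKM in CharmeKO. Its log2 fold change of 1.15 (SE 0.26, adjusted p = 0.0807) was the lowest of the called kinesins, and here CharmeKO pool 2 was the highest. Kif4 works with condensin on chromosomes and with Prc1 on the central spindle, and it measured 3.69, 4.44 and 2.50 FPKM in CharmeWT and 11.0 and 7.05 FPKM in CharmeKO. The groups did not overlap, and the log2 fold change was 1.35 (SE 0.28, adjusted p = 0.0633).

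Kinesins that shorten or restrain microtubule ends were represented by 3 genes. Kif2c (MCAK) takes microtubules apart at centromeres and helps to correct wrong attachments. Kif2c measured 2.57, 2.96 and 2.11 FPKM in CharmeWT and 7.73 and 7.65 FPKM in CharmeKO. The CharmeKO pools were nearly equal, and Kif2c had the lowest adjusted p of the family, with a log2 fold change of 1.60 (SE 0.22, adjusted p = 0.0323). Kif18a damps the movements of chromosomes at the metaphase plate, and it was the least abundant mitotic kinesin in CharmeWT, with 0.558, 0.386 and 0.324 FPKM, against 1.47 and 0.985 FPKM in CharmeKO. It rose by 1.53 on the log2 scale (SE 0.31, adjusted p = 0.0649). Kif18b limits the length of astral microtubules and was the only mitotic kinesin whose groups overlapped, with 2.23, 4.48 and 2.07 FPKM in CharmeWT and 4.30 and 5.79 FPKM in CharmeKO. CharmeWT pool 2 was above CharmeKO pool 1, and the log2 fold change of 0.79 was not called (SE 0.34, adjusted p = 0.255).

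The minus-end directed Kifc1 (HSET) crosslinks microtubules and gathers them at the poles. Its level was 5.05, 7.83 and 4.59 FPKM in CharmeWT and 8.53 and 10.7 FPKM in CharmeKO. The CharmeKO pools were both above the CharmeWT pools, but the gap to CharmeWT pool 2 was small, and the log2 fold change of 0.73 was not called (SE 0.26, adjusted p = 0.196); without CharmeKO pool 1 it was 0.89 and called (adjusted p = 0.0923). Kifc5b, a close relative of Kifc1 on the same chromosome, measured 1.08, 1.45 and 1.13 FPKM in CharmeWT and 2.16 and 2.45 FPKM in CharmeKO, with a log2 fold change of 0.92 (SE 0.27, adjusted p = 0.148), and it was called without CharmeKO pool 1 (adjusted p = 0.0885) and without CharmeKO pool 2 (adjusted p = 0.0767). The longest transcripts of the pair share 229 stretches of 150 bases, 10.4% of those in Kifc1 and 9.23% of those in Kifc5b, so how reads were split between them is uncertain. DESeq2 called Kifc5b (adjusted p = 0.0676), and so did the likelihood ratio test (adjusted p = 0.0674), while Kifc1 was called by neither.

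**Figure D2:**
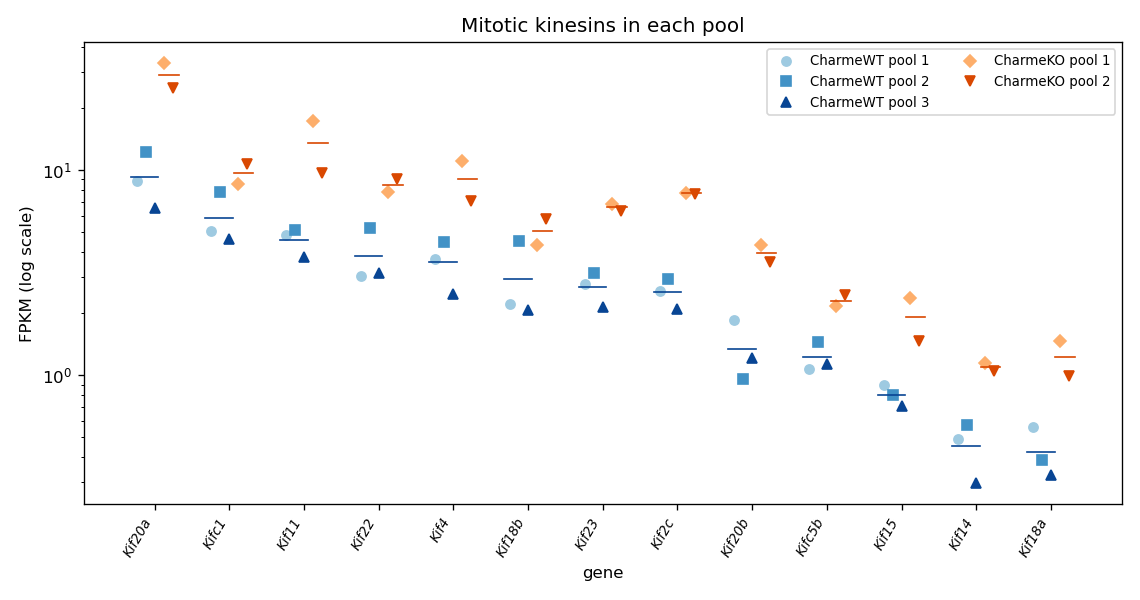
Level of each mitotic kinesin (horizontal axis, ordered by the CharmeWT mean) in FPKM on a log scale (vertical axis), with 1 marker per pool and a short line at each genotype mean. Apart from Kif18b, where CharmeWT pool 2 (4.48 FPKM) exceeds CharmeKO pool 1 (4.30 FPKM), the orange CharmeKO markers lie above the blue CharmeWT markers.

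The CharmeWT pools kept a similar order across the mitotic kinesins. CharmeWT pool 2 was the highest of the 3 for 10 of the 13 genes and CharmeWT pool 3 the lowest for 10. CharmeKO pool 1 was above CharmeKO pool 2 for 9 of the 13, the exceptions being Kif22, Kif18b, Kifc1 and Kifc5b, of which only Kif22 was called. Levels depend on the exon length used for each gene: in the FPKM values the authors deposited, the CharmeWT mean was 7.04 for Kif11, 1.55 times the mean here and above that of Kifc1 (5.83), while Kif20a remained the highest. Ranked by CharmeWT level, the neighbours from Kif20a down to Kif2c overlapped between pools.

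Promoter sequences are shown because the group moved together and because promoters of many genes of late cell cycle hold a CCAAT box, the target of NF-Y, and a cell cycle homology region (CHR), the target of the DREAM and B-MYB complexes. RefSeq promoters (GRCm38.p6) were matched for 30 of the 38 members, 12 of them mitotic, and the 250 bases before the start were searched on both strands for CCAAT (or ATTGG) and for the CHR letters TTTGAA (or TTCAAA); matches of the pair can share bases at their ends, and none of those in the mitotic promoters did. The letters CCAAT or ATTGG were found in 8 of 12 mitotic kinesins (66.7%), 3 of 9 transport kinesins (33.3%) and 4 of 9 other members (44.4%), beside 40.1% of 11017 tested genes with a promoter and 37.5% of all 27025 promoters. TTTGAA or TTCAAA was found in 5 of 12 mitotic kinesins (41.7%), 1 of 9 transport kinesins (11.1%) and 2 of 9 other members (22.2%), beside 12.6% of tested genes and 18.3% of all promoters. The variant TTCGAA was in no mitotic kinesin promoter and in 2.10% of those of tested genes. Both kinds of letters, with TTCGAA counted too, stood together in 3 of 12 mitotic promoters (25.0%; Kif11, Kif14 and Kif22), 0 of 9 of transport kinesins and 3 of 9 of other members (33.3%; Kif26b, Kif27 and, through TTCGAA, Kif24), beside 5.54% of those of tested genes. A match of letters is a description and does not show that a factor binds there.

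The last 100 bases before the start are printed below for 5 mitotic kinesins whose matches lie close to the start and for Kif1c, the most abundant transport kinesin, which has none there; they were chosen after the matches were seen. Each runs 5′ to 3′ on the strand of its gene, and capitals mark the letters of either motif. Kif11 lies at chr19:37376282-37376381 (plus strand), Kif15 at chr9:122950981-122951080 (plus), Kif22 at chr7:127042421-127042520 (minus), Kifc1 at chr17:33890634-33890733 (minus), Kifc5b at chr17:26916991-26917090 (plus) and Kif1c at chr11:70700448-70700547 (plus).
Kif11: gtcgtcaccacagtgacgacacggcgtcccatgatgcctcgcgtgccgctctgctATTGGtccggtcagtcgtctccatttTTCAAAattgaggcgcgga
Kif15: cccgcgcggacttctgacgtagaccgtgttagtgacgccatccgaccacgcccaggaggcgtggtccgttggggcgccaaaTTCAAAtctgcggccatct
Kif22: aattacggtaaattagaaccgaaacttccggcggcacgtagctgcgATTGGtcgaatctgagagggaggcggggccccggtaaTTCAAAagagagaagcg
Kifc1: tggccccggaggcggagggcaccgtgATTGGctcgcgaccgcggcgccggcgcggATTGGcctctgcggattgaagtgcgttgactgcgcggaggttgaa
Kifc5b: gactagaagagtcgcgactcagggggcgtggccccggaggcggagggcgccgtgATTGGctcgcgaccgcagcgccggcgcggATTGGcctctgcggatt
Kif1c: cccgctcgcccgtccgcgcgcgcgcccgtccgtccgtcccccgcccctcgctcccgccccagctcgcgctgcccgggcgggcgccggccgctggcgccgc

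In Kif11 and Kif15 the letters TTCAAA lie at the same distance, 19 to 14 bases before the start, and in Kif22 they lie 17 to 12 bases before it. The letters ATTGG of Kif11 and Kif22 lie upstream of these, with their first base 45 and 54 bases before the start. Kifc1 and Kifc5b each hold ATTGG 2 times, at 74 and 45 bases before the start in Kifc1 and at 46 and 17 bases in Kifc5b. Among promoters not printed, those of the transport kinesins Kif1a, Kif1b, Kif3a and Kif3b also hold a match in the last 100 bases. Those of the mitotic kinesins Kif18a and Kif20b hold none in the 250 bases searched.

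No transport kinesin passed the test with all 5 pools. None of the 14 was called in either direction by the quasi-likelihood test of edgeR, where 0.524% of all genes tested were called lower. At an unadjusted p under 0.05, 4 had the lower mean in CharmeKO (Kif1c, Kif13a, Kif13b and Kif3c) and none the higher, where 8.01% of all genes tested had the lower mean at that level. The likelihood ratio test and DESeq2 each called 1 of them, Kif1c, as lower, where they called 2.35% and 3.21% of all genes lower. No transport kinesin was called in the fits that left out 1 CharmeWT pool or CharmeKO pool 1, while without CharmeKO pool 2, 4 were called lower and 2 higher, beside 15.6% and 16.1% of all genes in that fit. Log2 fold changes ran from -0.73 to 1.09, 9 of them below 0 and 5 above, and the median was -0.19. The CharmeKO pools were both below the CharmeWT pools in 6 genes, as in 18.2% of all genes tested, both above in 1, and overlapped in 7. Of the 16 genes listed as transport kinesins, Kif17 and Kif28 were not tested, with 8 and 26 counts over all pools.

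Kinesin-1, the heavy chain motor of mitochondria and lysosomes, was represented almost wholly by the widely expressed Kif5b, which made up 97.4% to 99.1% of the summed FPKM of its 3 genes in each pool. Kif5b measured 15.3, 14.7 and 18.0 FPKM in CharmeWT and 30.6 and 16.2 FPKM in CharmeKO. CharmeKO pool 1 was far above all other pools and CharmeKO pool 2 lay within the CharmeWT range. The log2 fold change of Kif5b, 0.55 over all pools (SE 0.25, adjusted p = 0.278), became 0.92 (SE 0.17, adjusted p = 0.00504) without CharmeKO pool 2 and 0.02 (SE 0.18, adjusted p = 0.975) without CharmeKO pool 1. Kif5a, a heavy chain known mainly from neurons, was scarce, with 22, 8 and 6 counts in CharmeWT and 15 and 34 in CharmeKO. It had the highest log2 fold change of the transport kinesins, 1.09, with a large error (SE 0.55, adjusted p = 0.312) and overlapping groups. Kif5c, likewise best known from neurons, had 20, 20 and 18 counts in CharmeWT and 27 and 33 in CharmeKO, and a log2 fold change of 0.73 (SE 0.39, adjusted p = 0.338). The summed level of 8 neuron markers, 38.2, 59.6 and 39.9 CPM in CharmeWT and 36.6 and 63.0 CPM in CharmeKO, overlapped between the genotypes, but it was mostly Uchl1. Of the 5 neuron markers tested, Prph and Tubb3 were highest in CharmeKO pool 2, as was Kif5a, and the others were not. Stmn2 was lower in both CharmeKO pools (4.25 and 4.93 CPM) than in every CharmeWT pool (5.92, 5.15 and 5.46 CPM). Elavl4 was highest in CharmeKO pool 1 and Uchl1, by CPM, in CharmeWT pool 2. Prph had 22, 4 and 3 counts in CharmeWT and 6 and 93 in CharmeKO, and Tubb3 17, 24 and 17 and then 13 and 79. The part of neuronal RNA in the Kif5a values was not tested.

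Kinesin-2 drives transport into cilia and of other cargo with Kif3a as the shared chain, paired with Kif3b or Kif3c. Kif3a measured 6.78, 4.23 and 4.80 FPKM in CharmeWT and 8.95 and 3.85 FPKM in CharmeKO, so that 1 CharmeKO pool was the highest and the other the lowest. For Kif3a the log2 fold change was 0.27 (SE 0.34, adjusted p = 0.692) over all pools, 0.75 (adjusted p = 0.0527) without CharmeKO pool 2 and -0.46 (adjusted p = 0.486) without CharmeKO pool 1. Kif3b was nearly level, at 4.35 ± 0.582 FPKM (SD, n = 3) in CharmeWT and 4.14 ± 0.364 FPKM (SD, n = 2) in CharmeKO, with a log2 fold change of -0.07 (SE 0.21). Kif3c measured 1.33, 1.94 and 1.74 FPKM in CharmeWT and 0.966 and 1.23 FPKM in CharmeKO, with a log2 fold change of -0.60 (SE 0.27, adjusted p = 0.266), which became -0.79 (adjusted p = 0.0797) without CharmeKO pool 2.

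Kinesin-3 held the most abundant member of the whole family. Kif1c, a fast carrier of vesicles and integrins (chr11:70700548-70731964, plus strand, GRCm38), measured 47.4, 57.7 and 49.5 FPKM in CharmeWT and 27.5 and 38.1 FPKM in CharmeKO. Every CharmeKO pool was below every CharmeWT pool, with means of 51.5 ± 5.42 FPKM (SD, n = 3) and 32.8 ± 7.50 FPKM (SD, n = 2). The log2 fold change of Kif1c, -0.65, was not called (SE 0.20, adjusted p = 0.165), while without CharmeKO pool 2 it was -0.91 (SE 0.19, adjusted p = 0.00851). Kif13a, which moves recycling endosomes, was the next of this family, with 14.5, 18.1 and 18.1 FPKM in CharmeWT and 12.3 and 12.8 FPKM in CharmeKO. The pools did not overlap, but the log2 fold change of -0.43 was not called (SE 0.18, adjusted p = 0.246); without CharmeKO pool 2 it was -0.46 with an adjusted p of 0.0933. Kif13b, a carrier of the scaffold protein Dlg1, had the lowest log2 fold change of the transport kinesins, -0.73 (SE 0.30, adjusted p = 0.239), at 0.410, 0.565 and 0.579 FPKM in CharmeWT and 0.337 and 0.289 FPKM in CharmeKO. The authors' FPKM values of Kif13b were 2.32 times higher, by a different gene length. Kif16b, which moves early endosomes, measured 5.03 ± 0.318 FPKM (SD, n = 3) and 4.20 ± 0.483 FPKM (SD, n = 2), with a log2 fold change of -0.26 (SE 0.18). The carriers of synaptic vesicle precursors Kif1b and Kif1a had log2 fold changes of -0.13 (SE 0.17) and 0.03 (SE 0.31), and both overlapped between the genotypes.

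Of the minus-end directed transport kinesins, Kifc3, which acts at cell junctions and the Golgi, measured 8.84, 11.4 and 9.22 FPKM in CharmeWT and 6.66 and 7.94 FPKM in CharmeKO. Its log2 fold change was -0.43 (SE 0.20, adjusted p = 0.281), and -0.57 (adjusted p = 0.0651) without CharmeKO pool 2. Kifc2 was scarcer, with 1.18 ± 0.403 FPKM (SD, n = 3) in CharmeWT and 0.876 ± 0.0669 FPKM (SD, n = 2) in CharmeKO, and its log2 fold change of -0.43 (SE 0.36) came with overlapping pools.

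**Figure D3:**
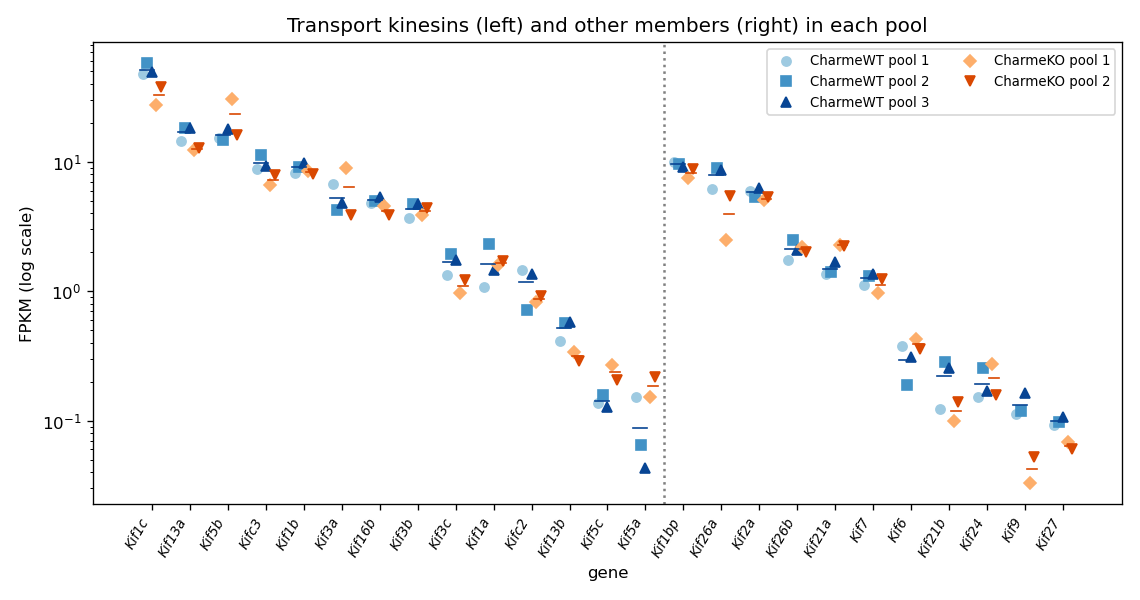
Level in FPKM on a log scale (vertical axis) of the 14 transport kinesins, left of the dotted line, and the 11 other members, right of it, in each pool, with a short line at each genotype mean. Kif1c is the highest in every pool except that Kif5b (30.6 FPKM) exceeds it (27.5 FPKM) in CharmeKO pool 1, where the markers of Kif5b and Kif3a stand away from CharmeKO pool 2.

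The other members include regulators of cilia and of microtubule growth, members without motor activity, and Kif1bp, a kinesin-binding protein rather than a kinesin that the symbols take in. None of the 11 was called by the quasi-likelihood test of edgeR. At an unadjusted p under 0.05, 2 were lower in CharmeKO (Kif26a and Kif9) and 1 was higher (Kif21a). Of all genes tested, 8.01% were lower and 10.6% higher at that level. The median log2 fold change of the 11 was -0.17. Kif26a, a member without motor activity that restrains growth factor signalling in enteric neurons, measured 6.22, 8.89 and 8.69 FPKM in CharmeWT and 2.47 and 5.48 FPKM in CharmeKO. Both CharmeKO pools were lower but differed from each other, with a log2 fold change of -0.99 (SE 0.32, adjusted p = 0.168). Without CharmeKO pool 2 Kif26a was called at -1.69 (adjusted p = 0.00222), and the likelihood ratio test and DESeq2 called it with all pools, at adjusted p values of 0.0686 and 0.0401. Kif9, a kinesin of cilia and flagella, had the lowest log2 fold change of the family, -1.54 (SE 0.66, adjusted p = 0.256), from only 10, 9 and 14 counts in CharmeWT and 2 and 5 in CharmeKO. It reached 10 counts in CharmeWT pools 1 and 3 alone, so the count filter kept it only through the genotype where it was higher. Kif21a, a brake on microtubule growth, measured 1.36, 1.42 and 1.69 FPKM in CharmeWT and 2.26 and 2.25 FPKM in CharmeKO, and its log2 fold change of 0.60 was not called (SE 0.23, adjusted p = 0.217).

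The abundant Kif1bp and Kif2a were close between the genotypes. Kif1bp measured 9.55 ± 0.425 FPKM (SD, n = 3) and 8.14 ± 0.926 FPKM (SD, n = 2), with a log2 fold change of -0.23 (SE 0.18, adjusted p = 0.508). Kif2a, a relative of Kif2c that takes microtubules apart in nondividing cells as well, measured 5.83 ± 0.484 FPKM (SD, n = 3) and 5.19 ± 0.208 FPKM (SD, n = 2). Its log2 fold change was -0.17 (SE 0.18, adjusted p = 0.639), beside 1.60 for Kif2c. Kif7, which acts in Hedgehog signalling at the tip of the cilium, and Kif26b had log2 fold changes of -0.17 (SE 0.28) and 0.00 (SE 0.21). The remaining Kif6, Kif21b, Kif24 and Kif27 had mean levels of at most 0.391 FPKM in both genotypes, and their adjusted p values were between 0.336 and 0.89. Outside the filter, Kif19a had 32 counts over all pools and Kif16bos, an antisense transcript, 4, while Kif12, Kif2b and the pseudogenes Kif22-ps, Kif4-ps and Kifc5c-ps were listed at 0 in every pool. Just inside it were Kif9 and Kif27, whose counts per pool were at most 14. Both reached 10 counts in CharmeWT pools 1 and 3 only, so their lower levels in CharmeKO are tied to the filter.

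Set side by side, the difference between the median log2 fold changes of mitotic and transport kinesins was 1.49. The highest transport value, that of the scarce Kif5a (1.09), was above the 3 lowest mitotic ones and that of the scarce Kif5c was just above Kifc1, while every transport gene with at least 1 FPKM in CharmeWT was below every mitotic gene. In CharmeWT the summed level of mitotic kinesins was 37.9, 49.6 and 30.5 FPKM and that of transport kinesins 114.1, 130.6 and 124.8 FPKM. In CharmeKO the sums were 108.1 and 91.0 FPKM for mitotic and 107.1 and 99.8 FPKM for transport kinesins. The ratio of mitotic to transport kinesins was thus 0.332, 0.380 and 0.245 in CharmeWT and 1.01 and 0.911 in CharmeKO, and the ranges did not overlap. Mitotic kinesins made up 21.2%, 23.6% and 16.5% of all kinesin FPKM in CharmeWT and 45.7% and 42.0% in CharmeKO, and transport kinesins 63.7%, 62.2% and 67.3% and then 45.3% and 46.1%. These sums are led by a few genes: Kif20a held 21.5% to 30.6% of the mitotic sum and Kif1c 25.7% to 44.1% of the transport sum.

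**Figure D4:**
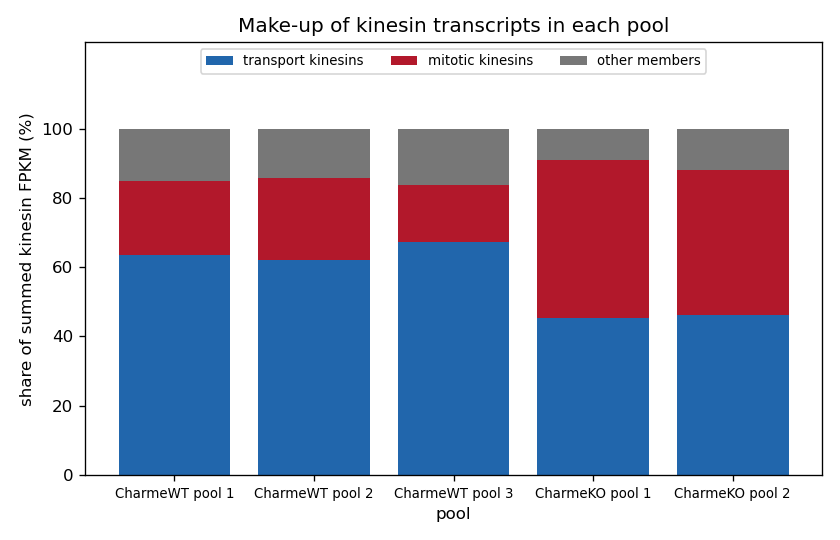
Share of the summed kinesin FPKM (vertical axis, percent) held by transport (blue), mitotic (red) and other (grey) members in each of the 5 pools (horizontal axis). The mitotic share is 16.5% to 23.6% in the CharmeWT pools and 45.7% and 42.0% in the CharmeKO pools.

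Levels of the mitotic kinesins were also summed by role, and some of these sums were mostly 1 gene. Kif20a held 63.5% to 72.9% of the cytokinesis sum over the pools. Kif11 held 84.1% to 87.9% of its sum with Kif15, and Kifc1 79.8% to 84.3% of its sum with Kifc5b. From CharmeWT to CharmeKO the ratio of mean sums was 2.98 for the 4 cytokinesis kinesins, 2.88 for Kif11 with Kif15, 2.38 for the chromokinesins, 2.37 for Kif2c, Kif18a and Kif18b, and 1.70 for Kifc1 with Kifc5b. Within the transport kinesins it was 1.47 for kinesin-1, with 31.0 FPKM in CharmeKO pool 1 and 16.6 FPKM in CharmeKO pool 2, 1.03 for kinesin-2, 0.707 for kinesin-3 and 0.743 for the minus-end directed pair. The differences between these ratios were not tested. Of the mitotic kinesins, Kifc1, Kifc5b and Kif18b had the highest GC content (57.0%, 55.8% and 55.2%). The settings with all pools include the length and GC correction, the replicate block and other tests, and both ends of the range over them are given. Log2 fold changes ran from 1.186 to 1.595 for Kif11, 1.029 to 1.553 for Kif18a, 0.989 to 1.284 for Kif15 and 1.048 to 1.307 for Kif14. They ran from 0.875 to 1.123 for Kifc5b, 0.649 to 0.968 for Kif18b and 0.604 to 0.941 for Kifc1. The part of GC content in the ratios was not tested.

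Many genes of proteins that load, guide or regulate mitotic kinesins were also called. Of 20 such spindle partners, 10 rose and 1 fell, where 1.53% of all genes tested were called higher and 0.524% lower. The median of their log2 fold changes was 1.21, beside 0.02 over all genes tested. In 16 of the 20, both CharmeKO pools lay above every CharmeWT pool, as in 17.8% of all genes tested. Hmmr, a spindle pole protein, had the largest change, from 4.31, 4.82 and 2.44 FPKM in CharmeWT to 24.5 and 9.17 FPKM in CharmeKO, a log2 fold change of 2.12 (SE 0.39, adjusted p = 0.045) that was 1.25 without CharmeKO pool 1 (adjusted p = 0.0253). The others called higher were Anln, Ect2, Cenpe, Nusap1, Prc1, Ska1, Birc5, Tpx2 and Sgo2a, with log2 fold changes between 1.31 and 1.80. Cenpe is itself a kinesin, of the kind that brings chromosomes to the plate, though its symbol keeps it outside the family as chosen, and it measured 2.31, 1.54 and 1.80 FPKM in CharmeWT and 7.49 and 4.82 FPKM in CharmeKO. Prc1, which bundles the central spindle with Kif4 and Kif14, had a log2 fold change of 1.62 (SE 0.28, adjusted p = 0.0408), and Tpx2, which targets Kif11 and Kif15 to the spindle, one of 1.45 (SE 0.21, adjusted p = 0.0336). Racgap1, the partner of Kif23 in centralspindlin, was not called at 0.80 (SE 0.27, adjusted p = 0.18).

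The most abundant spindle partners by CPM went the other way. Clasp1, a microtubule stabiliser that also works outside mitosis, measured 17.6, 16.3 and 18.8 FPKM in CharmeWT and 10.4 and 10.9 FPKM in CharmeKO and fell by 0.72 on the log2 scale (SE 0.18, adjusted p = 0.0989). Clasp1 was not called in any fit that left out 1 CharmeWT pool, with log2 fold changes of -0.67 to -0.77 and adjusted p values of 0.205 to 0.478. With all pools its call was also lost in the legacy and robust forms of the test, with RLE and upper-quartile normalization, with the length and GC correction and with the replicate block, at adjusted p values of 0.1 to 0.386. Numa1, a nuclear and spindle pole protein, was not called at -0.64 (SE 0.19, adjusted p = 0.15). As with the mitotic kinesins, no spindle partner was called higher without CharmeWT pool 1 or without CharmeWT pool 3.

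Among the 21 of 22 light chains, adaptors and regulators of transport kinesins that were tested, none was called by the quasi-likelihood test of edgeR, and their median was -0.11 on the log2 scale. Of all genes tested, 8.01% had the lower mean in CharmeKO at an unadjusted p under 0.05 and 10.6% the higher. Of these partners, 4 had the lower mean at that level and 1 the higher. The former were Trak1, the mitochondrial adaptor of Kif5b, at -0.73 (SE 0.21, adjusted p = 0.145), Madd, a partner of Kif1b, at -0.69 (SE 0.31), Plekhm2, which links Kif5b to lysosomes, at -0.67 (SE 0.25), and the kinesin light chain Klc4 at -0.57 (SE 0.18). The latter was the light chain Klc3, at 0.312, 0.150 and 0.344 FPKM in CharmeWT and 0.214 and 3.35 FPKM in CharmeKO, so that its log2 fold change of 2.78 (SE 0.81, adjusted p = 0.149) came from CharmeKO pool 2, the pool with the most salivary gland transcripts. The likelihood ratio test called 1 transport partner lower and 1 higher, and DESeq2 called 2 lower and 1 higher. Of all genes, the former called 2.35% lower and 3.92% higher and the latter 3.21% and 4.33%. Without CharmeKO pool 2, 9 were called lower and 1 higher, in a fit that called 15.6% of all genes lower and 16.1% higher. By CPM, Map7d1, a protein that recruits kinesin-1 to microtubules, and Trak1 were the most abundant, and Map7d1 had a log2 fold change of -0.51 (SE 0.23, adjusted p = 0.28).

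**Figure D5:**
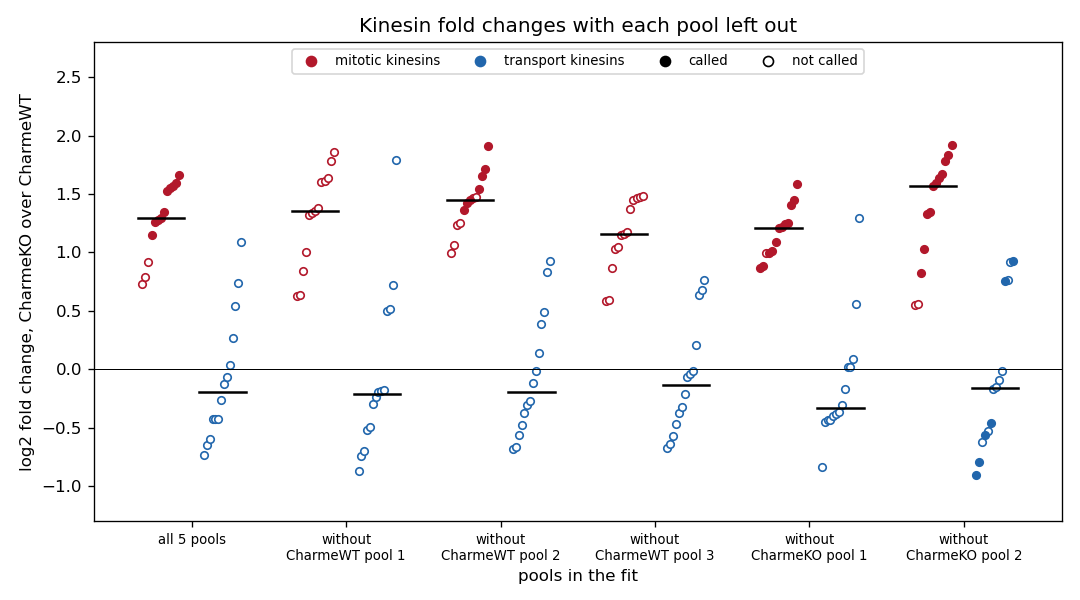
Log2 fold change (vertical axis) of each mitotic (red) and transport (blue) kinesin in the fit of all 5 pools and in the 5 fits with 1 pool left out (horizontal axis), with filled points for called genes and black lines at the medians. The mitotic median stays between 1.16 and 1.57 in the fits with a pool left out, no mitotic kinesin is called without CharmeWT pool 1 or 3, and transport kinesins are called only without CharmeKO pool 2.

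Markers of cell division and of other cell types also differed between the genotypes, and their part in the kinesin values was not tested. The proliferation markers Mki67, Top2a, Ccnb1 and Cdk1 rose, 4 of 6 on their list, and the summed level of the 6 was 417.7, 425.1 and 313.2 CPM in CharmeWT and 1387 and 717.8 CPM in CharmeKO. CharmeKO pool 1 was highest and CharmeWT pool 3 lowest, which is the order of the summed mitotic kinesins as well. Pcna and Mcm5, which serve DNA replication, were not called, with log2 fold changes of 0.86 (SE 0.28, adjusted p = 0.175) and 0.49 (SE 0.29, adjusted p = 0.38). Of 5 erythroid markers, the globins Hba-a1 and Hbb-bt rose, and the sum was 402.7, 334.8 and 351.5 CPM in CharmeWT and 704.4 and 604.8 CPM in CharmeKO. All 4 tested salivary gland markers were called higher, as were Myh8 and Mylpf among 5 tested skeletal muscle markers and S100b among 4 Schwann cell markers. The share of all genes tested that were called higher was 1.53%. The 4 salivary gland markers reached 10 counts in CharmeKO pools only, so the count filter kept them only through the genotype where they were higher. With the robust setting of edgeR, 3 of them, Bpifa2, Smgc and Prol1, were not called (adjusted p = 0.413, 0.413 and 0.439). Dcpp1 was still called there (adjusted p = 0.0763), while S100b was not (adjusted p = 0.102). The skeletal muscle sum, mostly Ckm, which the heart itself makes, was 2962 to 3820 CPM in CharmeWT and 4124 and 3636 CPM in CharmeKO, and the Schwann cell sum 3.57 to 6.95 CPM and then 6.30 and 20.9 CPM. None of these marker genes was called without CharmeWT pool 1 or without CharmeWT pool 3, and without CharmeWT pool 2 the calls of Hba-a1, Hbb-bt and S100b were lost as well. Without CharmeKO pool 1 the call of Hbb-bt was lost, and without CharmeKO pool 2 those of S100b and of Myh8, whose adjusted p was 0.00445 but whose mean level fell short of 1 FPKM, while the salivary gland markers did not pass the count filter in either fit.

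None of the 27 tested markers of cardiomyocytes, fibroblasts, endothelial cells, smooth muscle and pericytes, macrophages, neurons and T cells was called by the quasi-likelihood test of edgeR. At an unadjusted p under 0.05, 2 had the higher mean in CharmeKO and 2 the lower, beside 10.6% and 8.01% of all genes tested. The likelihood ratio test called 0 and DESeq2 1, a cardiomyocyte marker, as lower. The cardiomyocyte sum given above was lower in CharmeKO, without overlap. Its largest part, Myh6, measured 15628, 17256 and 14062 CPM in CharmeWT and 7348 and 12536 CPM in CharmeKO (log2 fold change -0.65, SE 0.38, adjusted p = 0.378). Actn2 was also lower without overlap, while Tnnt2, Ttn and Ryr2 overlapped. Of all genes tested, 18.2% had both CharmeKO pools below every CharmeWT pool. Fibroblast markers summed to 2499 to 2890 CPM in CharmeWT and 2323 and 3512 CPM in CharmeKO, and endothelial markers to 663.0 to 868.7 CPM and then 611.0 and 696.6 CPM. Smooth muscle and pericyte markers summed to 376.1 to 467.2 CPM in CharmeWT and 302.7 and 274.7 CPM in CharmeKO, without overlap. Macrophage markers summed to 43.4 to 69.5 CPM and then 45.9 and 82.6 CPM, and T cell markers were near 0 in both genotypes, at most 2.48 CPM in any pool.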

How the data were processed

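The authors trimmed the reads with cutadapt and Trimmomatic, aligned them with STAR to GRCm38 (mm10 per the labels) and counted fragments per gene on the annotated strand; the deposited counts are raw whole numbers. A deposited FPKM table, made by the authors with edgeR, served only to check gene lengths; its values differ from those here by a constant factor per gene, among kinesins mainly in Kif13b (2.32), Kif11 (1.55) and Kifc5b (1.41). FPKM values were computed here from the counts, with TMM-scaled library sizes and summed exon lengths from GENCODE M21 (23 tested genes had none and were given 1000 bases).

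Genotype was tested in R 4.3.3 with the quasi-likelihood test of edgeR 4.0.16 in its newer form, TMM normalization and Benjamini-Hochberg adjustment over the 14880 genes that passed the count filter. Standard errors are the size of the log2 fold change over the root of the F statistic. Filter and thresholds follow the study's methods, which name the likelihood ratio test. With 3 pools against 2 the smallest exact one-sided p is 0.1, so no exact p is given. The code was tested on simulated data.

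The members and lists were chosen with earlier results of these data known. All kinesins are named, and of the other lists the 2 most abundant genes and, where at most 5, the called ones; the remaining spindle and transport partners, Pcna and Mcm5 were named after their values were seen. The other settings tried were DESeq2 1.42.0, the likelihood ratio test, legacy and robust forms, RLE and upper-quartile normalization, other filters, an adjusted p under 0.05, a replicate block, a length and GC correction with splines of 4 degrees of freedom, other sortings of the family and each pool left out.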

Additional observations from a re-analysis of the deposited data

How the results depend on the processing

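The higher level of the mitotic kinesins kept its direction in every setting tried, with a median log2 fold change of 1.11 to 1.57, while the number of calls did not. Mitotic kinesins made up the calls of higher kinesins in every fit of all 5 pools. Their number was 5 at an adjusted p under 0.05 and 2 with the replicate block and the length and GC correction together, and in the other settings with all pools it was between 7 (replicate block) and 12 (length and GC correction). Over the fits that left out 1 pool, it ran from 0 to 12, that of all kinesins called higher from 0 to 13 and that of all kinesins called lower from 0 to 5. The likelihood ratio test and DESeq2 each called 2 kinesins lower, 1 of them a transport kinesin (Kif1c) and 1 an other member (Kif26a), and the replicate block called 1 lower, Kif26a. With a pool left out, transport kinesins called lower ran from 0 to 4, transport kinesins called higher from 0 to 2 and other members called lower from 0 to 1.

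Spindle partners called higher were 2 with the block and the correction together and 0 to 14 with a pool left out. Of the transport partners, the likelihood ratio test called 1 lower and 1 higher, DESeq2 2 lower and 1 higher and the replicate block 1 higher, and with a pool left out 0 to 9 were called lower and 0 to 1 higher. Over all genes, the likelihood ratio test called 584 higher and 349 lower, DESeq2 645 and 477, the replicate block 150 higher, an adjusted p under 0.05 left 97 and 14, the block with the correction 38 and 5, and the robust form called 51 lower. With a pool left out, calls over all genes ran from 0 to 2336 higher and from 0 to 2271 lower.

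The median log2 fold change of the transport kinesins was -0.0209 with the length and GC correction, 0.0487, on the other side of 0, with the replicate block added, and -0.33 to -0.14 with a pool left out. The difference between the mitotic and transport medians was 1.06 with the block and the correction and 1.29 to 1.73 with a pool left out. Of single kinesins, only ones not called with all pools changed sign. With the length and GC correction the log2 fold change was 0.322 for Kif26b, 0.0109 for Kif3b, 0.148 for Kif7 and 0.0339 for Kif1b, and with the replicate block added it was 0.281, 0.0546, 0.196 and 0.0427 for these and 0.0646 for Kifc2. Kif26b was at 0.0267 with upper-quartile normalization, 0.00751 with the replicate block and -0.12 to 0.14 with a pool left out. With a pool left out, log2 fold changes ran from -0.19 to 0.38 for Kif1a, -0.46 to 0.75 for Kif3a, -0.18 to 0.0183 for Kif3b and -0.28 to 0.52 for Kif24. The cause of these changes was not tested.

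Pools of the 2 genotypes share replicate numbers 1 and 2, and whether pools of the same number belong together is not known. Their deviations from the genotype means had correlations of 0.137 and 0.0778 for the same number and -0.137 and -0.0778 for unlike numbers. With 2 CharmeKO pools the deviations of the 2 mirror each other, so these correlations cannot decide on a pairing. With the number as a replicate block, 7 mitotic kinesins were called; Kif4, Kif14 and Kif15 were not, and the mitotic and transport medians were 1.14 and -0.14. Counting Kif2a and Kif24 as mitotic, or leaving out Kifc1 and Kifc5b, gave 10 calls each. Where a fit had only 1 CharmeKO pool, that pool was assumed to vary like the CharmeWT pools. Members with few counts, such as Kif5a and Kif9, had standard errors above 0.5 on the log2 scale.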

Other observations

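Dynein, the motor that walks toward the minus ends of microtubules, and its activator dynactin work against the transport kinesins on shared cargo. Of 18 of their subunit genes 17 were tested and none was called by the quasi-likelihood test of edgeR, with a median log2 fold change of 0.20. The likelihood ratio test called 0 higher and 2 lower, and DESeq2 1 higher and 2 lower. Of all genes, the former called 3.92% higher and 2.35% lower and the latter 4.33% and 3.21%. At an unadjusted p under 0.05, 3 had the lower mean in CharmeKO and 2 the higher. The shares of all genes tested at that level were 8.01% and 10.6%. The lower ones were the motor chain Dync1h1 at -0.73 (SE 0.20, adjusted p = 0.137), the light chain Dynll2 at -0.75 (SE 0.19, adjusted p = 0.117) and the largest dynactin subunit Dctn1 at -0.54 (SE 0.21, adjusted p = 0.226). The higher ones were the small chains Dynlrb1 at 0.61 (SE 0.21, adjusted p = 0.187) and Dynlt3 at 0.59 (SE 0.23, adjusted p = 0.226). Dync1h1 measured 15.8, 17.7 and 18.4 FPKM in CharmeWT and 8.55 and 12.3 FPKM in CharmeKO. Dynlrb1 measured 179.5, 129.4 and 136.9 FPKM in CharmeWT and 257.1 and 195.3 FPKM in CharmeKO. Neither overlapped, where 18.2% of all genes tested had both CharmeKO pools below every CharmeWT pool and 17.8% had both above. Dctn2, among the most abundant of the list by CPM, had a log2 fold change of -0.31 (SE 0.18, adjusted p = 0.374).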
